A study of Mus musculus with 6 samples.

Results

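The genes for the proteins of the cytosolic ribosome were examined in Prx1-Cre Ebf3-KO and Prx1-Cre Ebf3 heterozygous lateral plate mesenchymal cells (LPMs). The members are the rows of the deposited gene table whose symbol has the form of a core cytosolic ribosomal protein, a name in Rps for the small subunit or in Rpl for the large subunit, with the P0, P1 and P2 stalk proteins and Rpsa, and without names that mark a pseudogene. This gave 88 of 49585 genes, 36 for the small subunit and 52 for the large one. Fau, Rack1 and Rpl36al encode ribosomal proteins too but are named otherwise, so they were kept apart and are described beside the members.

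Thoracic LPMs were taken from E10.5 mouse embryos on a C57BL/6 background (C57BL/6NCrSlc in the study's methods), and cells that carried the Tdtomato label activated by Prx1-Cre were isolated by FACS before RNA was extracted and made into SMARTer libraries. The 3 KO samples carried Prx1-Cre with 2 floxed Ebf3 alleles, and the 3 heterozygous (het) samples carried Prx1-Cre with 1 floxed and 1 wild-type Ebf3 allele. Both genotypes therefore had the Cre driver, the R26R Tdtomato reporter and at least 1 floxed allele, and no sample had 2 intact alleles. The Cre acts in limb and body wall mesenchyme and its descendants, so Ebf3 is deleted only in cells that used the Prx1 enhancer. The labels do not say whether the samples of a genotype came from separate embryos or pools, so p-values measure only the spread between these samples. In bulk RNA, fewer cells of one type and less RNA per cell cannot be told apart.

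A ribosome holds 1 copy of nearly every one of these proteins, and cells make them in balanced amounts. The small subunit reads the mRNA and the large subunit joins amino acids, with an acidic stalk that recruits the elongation factors. Most ribosomal protein mRNAs begin with a C followed by an unbroken run of pyrimidines, the terminal oligopyrimidine (TOP) tract, through which mTORC1 and Larp1 set their translation together. Dividing embryonic cells express these genes strongly, and loss of single members gives tissue-restricted defects in mice, as with Rpl38 in the axial skeleton.

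The RefSeq start site was read for this feature, which 13 of 60 tested members with a start showed at the start base itself. The sequence around the start is printed for the members of smallest edgeR p in either direction of the genotype comparison below, where RefSeq held a start. No member was called in that comparison. Apart from Rps27, the printed members had unadjusted edgeR p-values from 0.117 (Rpl10) to 0.835 (Rpl19). The choice therefore does not tie these sequences to a genotype difference. Each sequence holds 10 bases before and 20 bases from the RefSeq start (GRCm38.p6), 5′ to 3′ on the strand of the gene, and capitals mark the longest unbroken run of C and T that touches the 5 bases to either side of the start base.
Rps27: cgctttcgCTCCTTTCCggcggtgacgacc
Rpl10: tacagTggaagataggccgcctatataagg
Rps21: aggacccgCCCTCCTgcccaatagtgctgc
Rpl38: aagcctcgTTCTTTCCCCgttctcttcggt
Rpl22l1: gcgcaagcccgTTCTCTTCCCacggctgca
Rplp2: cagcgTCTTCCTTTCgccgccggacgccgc
Rps18: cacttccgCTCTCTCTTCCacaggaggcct
Rpl7l1: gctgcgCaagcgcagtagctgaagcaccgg
Rpl37a: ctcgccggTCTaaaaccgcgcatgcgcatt
Rpl19: aaacgCCCTCactgcgcatgtgcgccgcgg
Rps27 (chr3:90213629-90213658), Rps21 (chr2:180257369-180257398), Rpl38 (chr11:114668570-114668599), Rplp2 (chr7:141447641-141447670) and Rps18 (chr17:33955646-33955675) had a C at the start base itself and 4 pyrimidines after it. Rpl22l1 (chr3:28805498-28805527) had a run that began 1 base after the start. Rpl10 (chrX:74270806-74270835), Rpl7l1 (chr17:46782637-46782666) and Rpl37a (chr1:72711250-72711279) had no such tract at the RefSeq start, and the run of Rpl19 (chr11:98026700-98026729) ended just before it.

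Over the 60 tested members that RefSeq gave a start, 13 had C at a start base followed by 4 pyrimidines, 21.7% against 3.01% of all 27025 genes with a start. Such a tract began within 5 bases of the start in 29 of the 60, 48.3% against 21.2% of all genes. The letters CCGGAA, the core of sites for the Ets factor GABP, stood on either strand in the 300 bases around the start of 34 members, 56.7% against 16.7% of all genes. GGGCGG, the core of the Sp1 site, stood in 38 members, 63.3% against 38.2%, and TATAAA in 7, 11.7% against 15.7%. CCATNTT, the core of YY1 sites, stood in 20, 33.3% against 18.2%. A match is a description of the letters and does not show that a factor binds there. The 27025 genes include genes under the count minimum, so the members were not compared with other expressed genes alone.

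Libraries held 2088091 to 3525565 gene counts from 36931792 to 44536132 reads. CPM below are counts scaled to TMM-adjusted library size, and log2 fold changes are KO over het with a standard error (SE) from edgeR's quasi-likelihood fit. The fit covered 10891 genes, those that reached 10 counts in 3 or more libraries. Ebf3 had 179, 87 and 220 counts in KO libraries 1, 2 and 3, against 308, 238 and 248 in het libraries 1, 2 and 3, and 74.0, 43.1 and 60.7 CPM against 94.6, 98.6 and 105.6 CPM, in the direction of the labels. All 8 markers of lateral plate mesenchyme passed the count minimum. Summed liver markers spanned 10.9 to 280.8 CPM in KO libraries and 29.8 to 77.9 CPM in het libraries, and summed cardiac markers 73.1 to 1580 CPM and 14.1 to 383.0 CPM, with Sox2, of the neural markers, at 0 in all. Mesenchyme markers summed to 1976 to 2652 CPM in KO libraries and 2296 to 2635 CPM in het libraries. The sums were 65.9 to 212.1 CPM and 53.9 to 164.4 CPM for endothelial, 14.9 to 36.7 CPM and 3.73 to 13.2 CPM for neural, and 234.0 to 276.3 CPM and 238.5 to 376.0 CPM for epithelial markers in KO and het libraries. Erythroid markers came to 1.24 to 23.7 CPM in KO libraries and 0.426 to 4.14 CPM in het libraries, and muscle precursor markers to 3.31 to 6.34 CPM and 2.55 to 4.30 CPM. The part of these transcripts in the values below was not tested.

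Of the 88 members, 80 passed the count minimum, 32 of the small and 48 of the large subunit. The 8 that did not were copies or tissue-restricted paralogs. Although their names do not mark it, GENCODE M21 annotates Rps12l1, Rps3a2, Rps3a3 and Rpl6l as processed pseudogenes and Rps4l as a transcribed processed pseudogene. Rps12l1, Rpl39l, Rps4l, Rps3a2 and Rps3a3 had 0 counts in all 6 libraries. Rpl3l, the striated muscle paralog of Rpl3, had 1 count in KO library 1 and 0 elsewhere, and Rpl10l, a testis-expressed retrogene copy of Rpl10, had 3 counts in het library 1 and 0 elsewhere. Rpl6l had 2, 6 and 6 counts in KO libraries, against 12, 7 and 12 in het libraries. The tested members lay on 19 chromosomes, most on chromosome 7 with 14, and 4 on the X chromosome, namely Rps4x, Rpl10, Rpl36a and Rpl39.

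The share of all gene counts that fell on the members was 2.88%, 4.16% and 4.29% in KO libraries 1, 2 and 3, against 3.04%, 4.17% and 3.49% in het libraries 1, 2 and 3. The Wilson 95% intervals of these shares, which cover counting error only, ran from 2.86% to 2.90%, 4.13% to 4.19% and 4.27% to 4.31% in KO libraries, and from 3.02% to 3.06%, 4.14% to 4.19% and 3.47% to 3.51% in het libraries. The low shares were those of library 1 of either genotype, and the genotypes overlapped over most of their range. The mean was 3.78% ± 0.781 in KO LPMs and 3.56% ± 0.568 in het LPMs (SD, n = 3 each), a difference within the spread between replicates. Without single libraries the difference of the means lay between -0.05 and 0.66 percentage points, the highest without KO library 1.

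**Figure D1:**
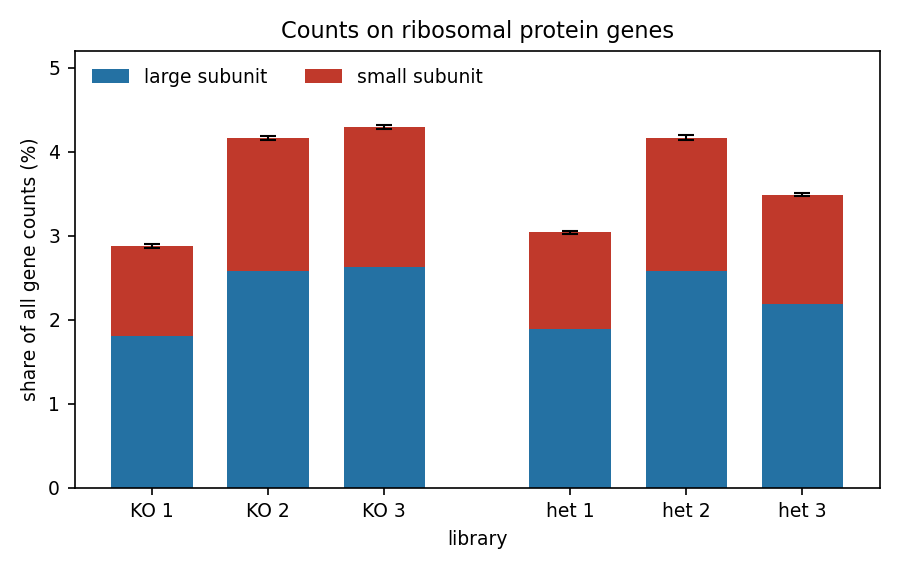
Share of all gene counts (%) on ribosomal protein genes in each of 3 KO and 3 het libraries, split into large (blue) and small (red) subunit genes, with the Wilson 95% interval of the total as a bar. The 6 totals lie between 2.88% and 4.29%, and library 1 is the lowest of either genotype.

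Small and large subunit genes moved together. Small subunit genes held 1.07%, 1.58% and 1.67% of counts in KO libraries, against 1.15%, 1.58% and 1.30% in het libraries. Large subunit genes held 1.81%, 2.58% and 2.62% in KO libraries, against 1.89%, 2.59% and 2.19% in het libraries. The summed small over summed large subunit counts came to 0.591, 0.613 and 0.636 in KO libraries and to 0.605, 0.612 and 0.593 in het libraries, with means of 0.613 ± 0.0225 and 0.603 ± 0.00958 (SD, n = 3 each). The balance of the subunits thus varied over a far narrower range than the share of counts itself, and it did not separate the genotypes.

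Within the 80 tested members, the libraries differed more than the genotypes did. The median log2 CPM of the members, each taken relative to its own mean over the 6 libraries, was -0.34, 0.26 and 0.22 in KO libraries 1, 2 and 3, against -0.29, 0.19 and -0.06 in het libraries 1, 2 and 3. The lowest library was KO 1 for 47 members and het 1 for 29, and the highest was KO 2 for 35, KO 3 for 22 and het 2 for 22. For the small subunit the medians were -0.36, 0.27 and 0.24 in KO libraries and -0.29, 0.20 and -0.07 in het libraries, and for the large subunit -0.31, 0.24 and 0.20 in KO libraries and -0.29, 0.18 and -0.03 in het libraries. The SD of a gene over the 6 libraries had a median of 0.28 log2 units for the members and 0.25 for all tested genes. After the median of the members in each library was subtracted, that SD was 0.11, so most of the spread of a member was common to the group.

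**Figure D2:**
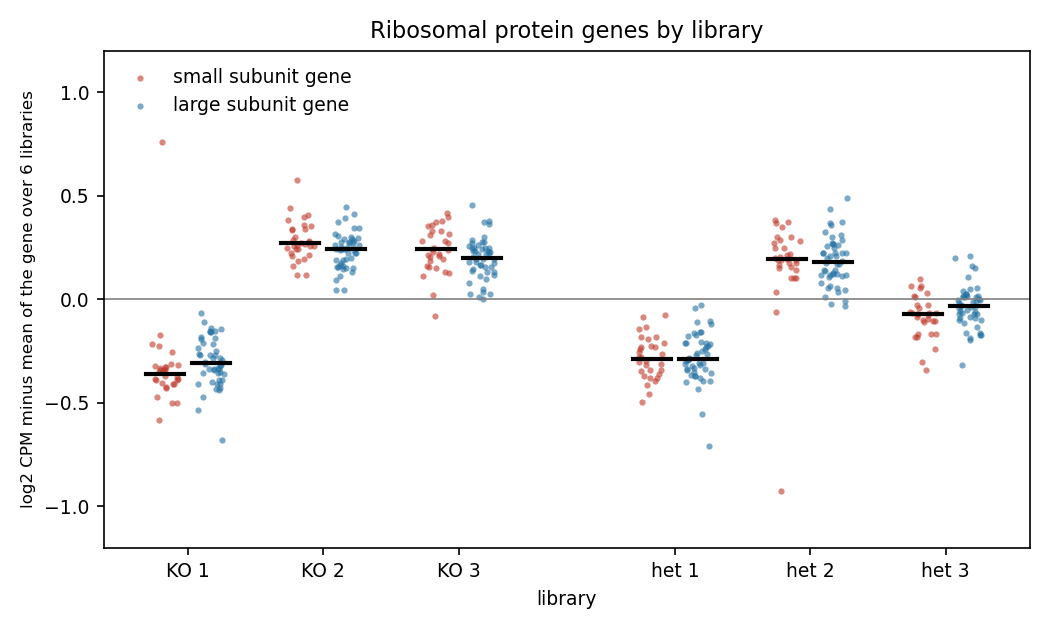
Log2 CPM of each tested member minus its own mean over the 6 libraries, by library, for small (red) and large (blue) subunit genes, with black lines at the medians. Rps12, whose counts reach 0, is left out of the points, and the lone points of KO 1 and het 2 far from the others are Rps27.

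Other gene groups of protein synthesis were set beside the members to see which shared this order of libraries. The 75 mitochondrial ribosomal protein genes had medians of -0.23, 0.27 and 0.13 in KO libraries and -0.19, 0.05 and 0.03 in het libraries. The 15 translation elongation and other TOP mRNAs had -0.22, 0.21 and 0.11 in KO libraries and -0.19, 0.02 and 0.03 in het libraries. The 41 ribosome assembly genes had -0.22, 0.29 and -0.04 in KO libraries, against -0.14, 0.04 and 0.07 in het libraries, and the 16 genes of rRNA synthesis -0.23, 0.20 and -0.01 against -0.19, 0.09 and 0.03. Library 1 of either genotype was the lowest in all 4 groups. The 17 genes of eIF4 and mTORC1 control stayed near 0 in every library, with medians from -0.03 to 0.05 in KO libraries and from -0.07 to 0.06 in het libraries.

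Transcript length moved with the libraries too. The tested members are short, with a median summed exon length of 1806 bases against 4867 for all tested genes (GENCODE M21). Among genes other than the members, the fifth with the shortest exons, up to 2795 bases, had median log2 CPM of -0.14, 0.13 and 0.13 in KO libraries and -0.11, 0.07 and -0.01 in het libraries relative to each gene's mean. The fifth with the longest exons, from 8267 bases, had 0.14, -0.14 and -0.07 in KO libraries and 0.11, -0.03 and 0.02 in het libraries. The members thus followed the order of the shortest genes with larger differences (in KO 1, -0.34 against -0.14), and the part of length or RNA quality in it was not tested.

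No member was called between the genotypes. At an adjusted p under 0.05 (Benjamini-Hochberg over all tested genes, edgeR) 0 of 80 members passed, with a background of 0% (0 of 10891 genes). At an unadjusted p up to 0.05 by edgeR, 1 member, Rps27, was higher in KO LPMs, 1.25% of the members against a background of 1.38% (150 genes), and 0 were lower against a background of 0.771% (84 genes). DESeq2 gave the same 1 and 0 members at that unadjusted level and 0 at an adjusted p under 0.05. Of the 80 members, 1 lay higher in every KO library than in any het library, against a background of 3.95%, and 0 lay lower in every KO library, against 3.51%. These shares do not stand above the background.

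The members' fold changes were small and mostly above 0. The log2 fold change lay above 0 for 68 of 80 members (85%), 28 of 32 small and 40 of 48 large subunit genes, against 50.2% of all tested genes. Its median was 0.10 over the members, 0.13 for the small and 0.10 for the large subunit, and 0.00 over all tested genes. Among other genes it was 0.06 for the fifth with the shortest exons and -0.05 for the fifth with the longest, and the median SE of a member was 0.19. Since the members move together from library to library, these signs are not separate observations, and 63 of the 80 fold changes were smaller than their own SE. Apart from Rps27 and Rps12, the members ranged from -0.17 to 0.37.

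The direction depended on single libraries. Without KO library 1 the members' median was 0.27, all 80 lay above 0 and 19 were higher at an unadjusted p up to 0.05 by edgeR, 23.8% of the members against a background of 2.83% (308 genes) in that fit. Without het library 2 the median was 0.24, again with 80 of 80 above 0. Without KO library 2 it was -0.01 with 35 of 80 above 0, and without het library 1 it was -0.02 with 34 of 80 above 0. Without KO library 3 it was 0.02, with 50 of 80 above 0.

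**Figure D3:**
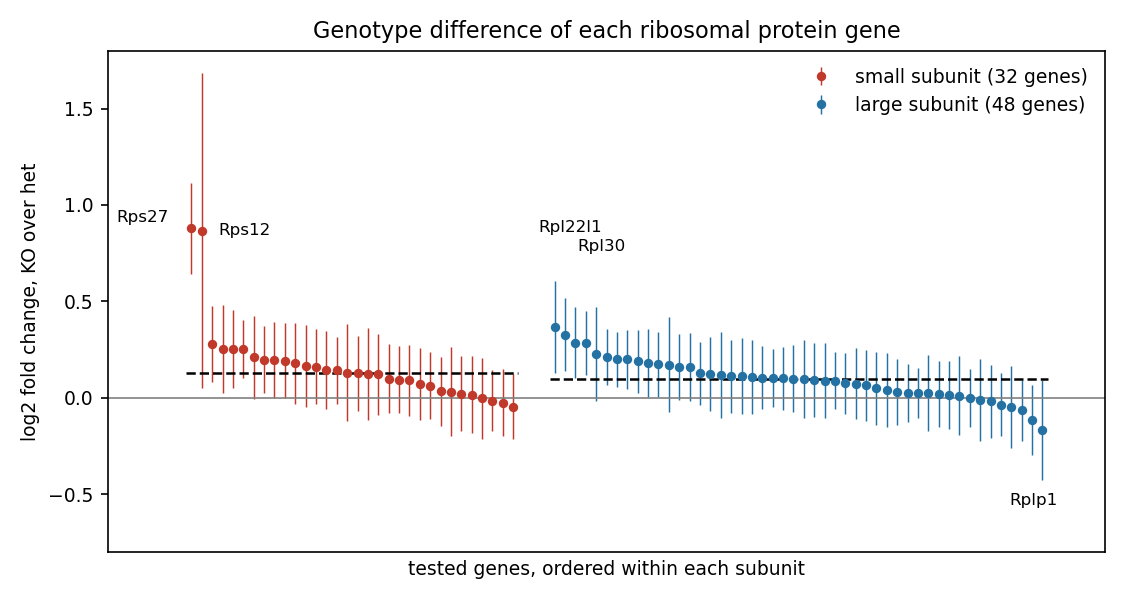
Log2 fold change of KO over het LPMs (edgeR) for each tested member with its SE as a bar, ordered within the small (red, 32 genes) and large (blue, 48 genes) subunit, with dashed lines at the medians of 0.13 and 0.10. Rps27 and Rps12 stand above the other small subunit genes, Rps12 with an SE of 0.81, and most other bars cross or approach 0.

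Rps27 encodes a small zinc-binding protein of the small subunit and lies at chr3:90212522-90213651 on the minus strand (deposited coordinates, which match GRCm38). It had 159, 106 and 155 counts in KO libraries 1, 2 and 3, against 118, 48 and 71 in het libraries 1, 2 and 3. This came to 65.7, 52.6 and 42.7 CPM in KO libraries and 36.2, 19.9 and 30.2 CPM in het libraries, so the genotypes did not overlap. The mean was 53.7 ± 11.5 CPM in KO LPMs and 28.8 ± 8.27 CPM in het LPMs (SD, n = 3 each), with a log2 fold change of 0.88 ± 0.24 (SE), an edgeR p of 0.00331 before adjustment and 1.00 after it. Its p was the 13th smallest of the 10891 genes.

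Rps27 also departed from the order of the libraries that the other members followed. Relative to the median of the members it stood at 1.10, 0.19 and -0.07 log2 units in KO libraries 1, 2 and 3, against 0.21, -1.12 and -0.28 in het libraries 1, 2 and 3. It was highest in KO 1, where 47 other members were lowest, and low in het 2, where 22 others were highest.

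The Rps27 row holds only part of the reads that match this transcript. Rps27rt, an intronless retrogene copy at chr9:114982366-114982739, had 104.1, 145.9 and 339.8 RPKM (reads scaled to exon length and to mapped reads) in KO libraries, against 174.3, 205.1 and 165.6 in het libraries. Rps27 had 23.4, 14.4 and 23.8 RPKM in KO libraries, against 16.2, 8.52 and 10.2 in het libraries. Converted back to fragments, 38.5%, 21.6% and 16.3% of those of the 2 rows were on Rps27 in KO libraries, against 20.5%, 10.4% and 14.6% in het libraries. Summed over both rows, the fragments scaled to library size in the way of CPM were 289, 407 and 439 in KO libraries, against 290, 365 and 333 in het libraries. The mean of the sum was 378 ± 78.9 in KO LPMs and 329 ± 37.9 in het LPMs (SD, n = 3 each), a log2 ratio of 0.20 with overlapping libraries. In the deposited counts Rps27rt had 14, 34 and 36 in KO libraries, against 14, 19 and 30 in het libraries, fewer than Rps27 in every library. The sum of fragments therefore includes many that the counts leave out, and its ratio does not apply to the counts. The counts of the 2 rows, the scale of the test, were not summed. The sum of fragments was chosen after the values were seen. How reads were shared between the 2 rows is not given in the sources used here, so the Rps27 difference is uncertain.

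Rps27l, the paralog of Rps27 and a target of Trp53, had 43.8, 76.8 and 48.5 CPM in KO libraries, against 41.5, 55.1 and 49.0 CPM in het libraries. The genotypes overlapped, with a log2 fold change of 0.21 ± 0.22 (SE, edgeR).

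Rps12, a small subunit protein involved in cell competition in Drosophila, had a fold change of similar size to that of Rps27, with a larger SE and overlapping libraries. It had 20, 76 and 132 counts in KO libraries, against 0, 40 and 72 in het libraries, and 8.26, 37.7 and 36.4 CPM against 0, 16.6 and 30.7 CPM. Library 1 was the lowest of either genotype, and the log2 fold change was 0.87 ± 0.81 (SE, edgeR). It lay between 0.22, without het library 1, and 1.85, without het library 3, and at 2.91 with limma-voom. A count of 0 in het library 1 allows up to 3 counts there, by counting error alone. Its processed copy Rps12-ps3 at chr19:59322290-59322783, had 80.6, 81.6 and 155.4 RPKM in KO libraries, against 98.7, 111.1 and 79.7 in het libraries, while Rps12 itself had 5.11, 17.2 and 33.9 against 0, 9.54 and 19.4. The Rps12-ps3 row held 0, 0 and 0 counts in KO libraries and 0, 1 and 1 in het libraries. Its RPKM thus rests on reads that the counts leave out. How these were shared is not given in the sources used here, so the levels of the 2 rows cannot be compared.

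Among large subunit genes the smallest p-values belonged to Rpl30, Rpl10, Rpl38 and Rpl22l1, and Rps21 joined them for the small subunit. Rpl30, whose yeast homolog regulates its own splicing, had 126.8, 194.3 and 198.8 CPM in KO libraries, against 115.5, 156.6 and 143.5 CPM in het libraries. Its log2 fold change was 0.33 ± 0.19 (SE) with an unadjusted edgeR p of 0.110, and of 0.51 with a p of 0.0047 without KO library 1. The libraries overlapped, since KO 1 lay below het 2 and het 3.

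Rpl10, a protein added late in the maturation of the large subunit, had 143.4, 162.1 and 194.7 CPM in KO libraries, against 126.9, 165.3 and 120.1 CPM in het libraries, with a log2 fold change of 0.28 ± 0.17 (SE, edgeR). Rpl38, which is needed for the translation of Hox mRNAs in mouse embryos, had 183.0, 307.4 and 267.0 CPM in KO libraries, against 180.9, 220.9 and 219.7 CPM in het libraries, with a log2 fold change of 0.29 ± 0.19. In both genes KO 1 lay among the het libraries.

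Rps21 had 143.4, 204.3 and 185.3 CPM in KO libraries, against 142.5, 155.4 and 149.9 CPM in het libraries, with a log2 fold change of 0.25 ± 0.15 (SE, edgeR). Rpl22l1, the paralog of Rpl22, had 22.7, 33.2 and 30.6 CPM in KO libraries, against 16.9, 27.3 and 23.4 CPM in het libraries, with a log2 fold change of 0.37 ± 0.24. KO 1 overlapped the het libraries in both, as in the genes above. Without KO library 1 the log2 fold changes were 0.38 for Rpl10, 0.47 for Rpl38 and 0.38 for Rps21, and these 3 were among the 19 members at an unadjusted p up to 0.05 by edgeR.

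The members with a lower mean in KO LPMs included the acidic stalk proteins, which bind the elongation factors. Rplp1 had 462.7, 960.8 and 755.7 CPM in KO libraries, against 573.5, 1042 and 830.3 CPM in het libraries, with a log2 fold change of -0.17 ± 0.26 (SE, edgeR). Rplp2 had 1053, 1566 and 1517 CPM in KO libraries, against 1317, 1819 and 1351 CPM in het libraries, with a log2 fold change of -0.12 ± 0.18. Their anchor on the ribosome, Rplp0, had a log2 fold change of -0.01 ± 0.21. The libraries overlapped in each of these genes.

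The other 4 of the 6 members of smallest p below 0 were Rpl7l1, Rps18, Rpl37a and Rpl19, with log2 fold changes of -0.07 ± 0.16, -0.05 ± 0.17, -0.05 ± 0.21 and -0.04 ± 0.17 (SE, edgeR). Rpl7l1 had 136.8, 195.3 and 179.0 CPM in KO libraries, against 168.0, 202.2 and 164.8 CPM in het libraries, and Rps18 had 185.9, 272.2 and 236.4 CPM, against 212.3, 276.4 and 228.2 CPM. Rpl37a had 71.5, 101.6 and 113.1 CPM in KO libraries, against 76.8, 129.3 and 91.6 CPM in het libraries, and Rpl19 had 540.4, 769.9 and 659.1 CPM, against 582.1, 792.3 and 643.8 CPM. In all 4 the lowest library was KO 1, and the genotypes overlapped.

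**Figure D4:**
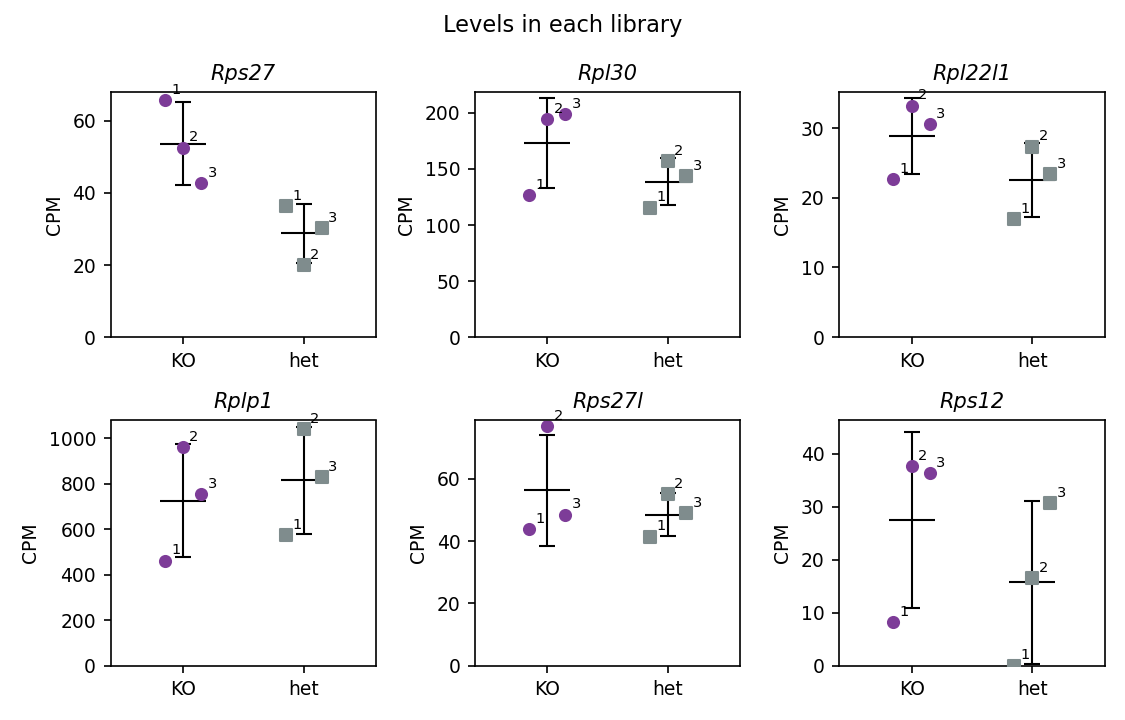
Levels (CPM) of 6 members in each library, KO (circles) and het (squares), with replicate numbers and the mean ± SD of 3 samples. The genotypes do not overlap for Rps27 and overlap for Rpl30, Rpl22l1, Rplp1, Rps27l and Rps12, where library 1 is the lowest of either genotype.

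Paralogs of members were compared per length where both were tested. Rpl22 had 508.2, 725.8 and 741.9 CPM in KO libraries, against 501.9, 742.6 and 647.2 CPM in het libraries, a log2 fold change of 0.06 ± 0.18 (SE, edgeR), beside the values of Rpl22l1 above. Per length, Rpl22 averaged 56.7 RPKM and Rpl22l1 10.3 RPKM over the 6 libraries. Rpl7 averaged 126.5 RPKM and Rpl7l1 24.9 RPKM, and Rpl7 had a log2 fold change of 0.16 ± 0.18. Rps27l averaged 15.3 RPKM beside 16.1 RPKM for the Rps27 row, with the order of the 2 not the same in every library. The Rps27 row held only 19.3% of the fragments of Rps27 and Rps27rt over all libraries. The levels of Rps27l and Rps27 therefore cannot be compared as those of the other pairs.

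For the other pairs the second member was at or near 0. Rpl3, at the peptidyl transferase centre, had 824.7, 1280 and 1205 CPM in KO libraries, against 912.3, 1145 and 1034 CPM in het libraries, while Rpl3l had 1 count in all. Rpl39 had 72.3, 119.0 and 138.4 CPM in KO libraries, against 74.3, 130.5 and 89.8 CPM in het libraries, and its testis paralog Rpl39l had 0 counts. Rps4x had 437.5, 649.5 and 657.5 CPM in KO libraries, against 473.0, 637.7 and 594.0 CPM in het libraries. Rps4l, annotated as a transcribed processed pseudogene, had 0 counts. The log2 fold changes of Rpl3, Rpl39 and Rps4x were 0.10 ± 0.17, 0.17 ± 0.25 and 0.03 ± 0.18 (SE, edgeR), each with overlapping libraries.

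Levels of different members can be compared only per length, and the deposited RPKM spanned a wide range. Mean RPKM over the 6 libraries ran from 10.3 to 436.4 among the 80 tested members, with a median of 72.8 against 2.33 over all tested genes. All 80 lay above that median of all genes. Small subunit genes had a median of 64.4 RPKM and large subunit genes one of 83.6 RPKM.

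The highest member was Rplp1, with 243.6, 382.3 and 624.3 RPKM in KO libraries, against 380.8, 564.3 and 423.2 RPKM in het libraries. Rps24, a protein of the small subunit mutated in Diamond-Blackfan anaemia, followed with a mean of 357.2 RPKM and Rpl23a, which lies at the exit tunnel, with 316.9 RPKM. The lowest tested members were Rpl22l1 at 10.3 RPKM, Rps12 at 14.2 RPKM and Rpl27 at 14.5 RPKM. The place of Rps12 is uncertain, since how reads were shared with Rps12-ps3 is not given in the sources used here.

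RPKM shifted as a whole between libraries, so the order of members was read within each. The median RPKM of the members was 52.0, 60.7 and 116.4 in KO libraries, against 68.8, 81.4 and 62.3 in het libraries. RPKM is scaled to all mapped pairs, and the deposited gene counts came to only 17.6% to 33.5% of these. The cause of the shift was not tested. Divided by that median, Rplp1 stood at 5.94 on average (range 4.69 to 6.93 over the 6 libraries) and Rpl22l1 at 0.142 (0.108 to 0.175). Of the 79 steps between neighbours in this order, 3 had ranges that did not overlap, so most neighbours did not differ beyond their spread. These included the steps between Rps3a1 and Rpl17 and between Rps20 and Rpl37a. The Spearman correlation of the 80 levels between libraries lay between 0.987 and 0.996, as a description across genes that share length and sequence.

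**Figure D5:**
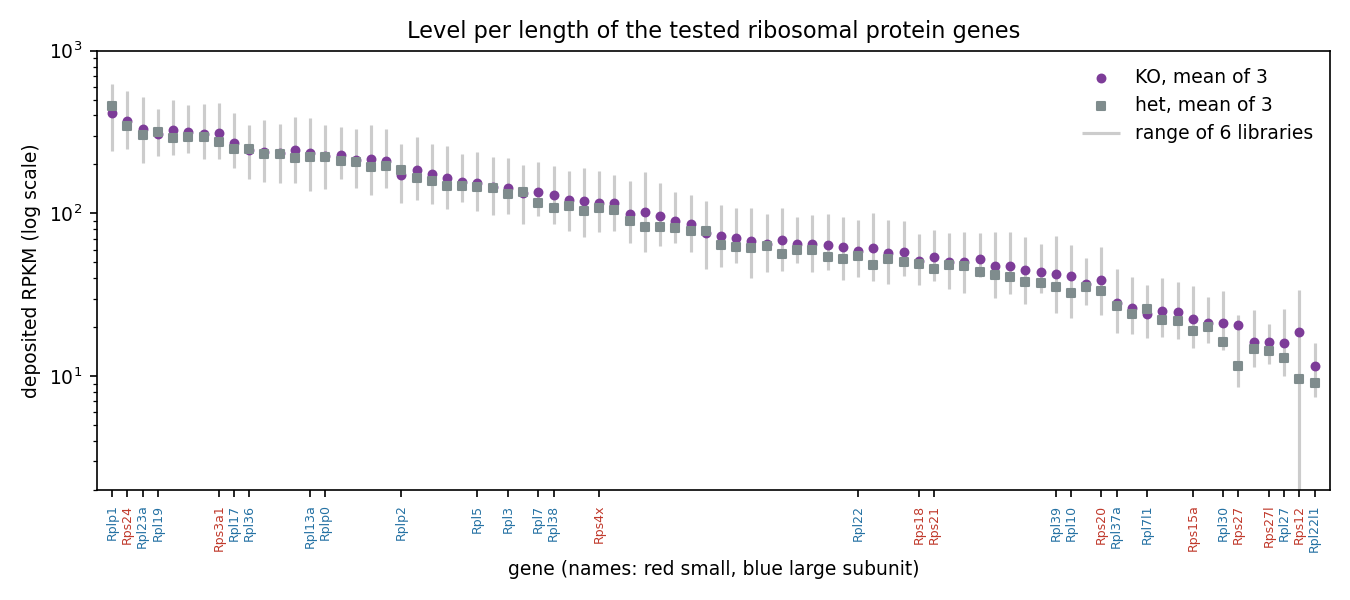
Deposited RPKM (log axis) of the 80 tested members in order of their mean, with the names of those described in the text, and the mean of 3 KO (circles) and 3 het (squares) libraries and the range of the 6 libraries as a line. Means run from 436.4 for Rplp1 to 10.3 for Rpl22l1, and the line of Rps12 is cut off at the lower edge because het library 1 is at 0.

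The length used for RPKM bears on this order. For the 59 tested members whose RPKM converted back to whole fragments (within 0.01) it was the union of all annotated exons, and for the other 21 the length was not recovered. The union reached 6270 bases for Rps15a, while the median protein-coding transcript of a member ran from 367.5 to 3706 bases. Rps15a averaged 20.8 RPKM, in place 72 of the 88 members, with a union of 6270 bases and a coding transcript of 638.5. For the 59 members, fragments per kilobase of coding transcript had a Spearman correlation of 0.86 with mean RPKM, and the highest was Rpl13a. The order near the middle is therefore not fixed by these data.

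The deposited counts also held an uneven part of the reads behind RPKM. Over these 59 members the counts came to between 35.2% (Rpl5) and 100% of the fragments, with a median of 61.7%, against 100% over the 7360 tested genes with whole fragments. Only 3 of the 59 had at least 99%, Rps21 and Rps27l among them, against 67.1% of those genes. The loss was alike in all libraries, at 63.1%, 63.3% and 62.6% of the fragments in KO libraries, against 64.2%, 63.2% and 62.9% in het libraries. Mouse ribosomal protein genes have many processed copies, of which the table names 276, and these rows held 143 to 287 counts per library. In RPKM the same rows summed to between 445.1 and 1068 per library, beside 6488 to 14927 for the members. What the other reads matched was not tested, so counts of members are uncertain as levels, and 21 tested members gave no whole fragments and no percentage.

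Members with and without a TOP tract at the RefSeq start had like values. The 13 with C at a start base and 4 pyrimidines after it had a median log2 fold change of 0.10, and the 47 without had 0.10. Their median log2 CPM relative to each gene's mean was -0.31, 0.24 and 0.17 in KO libraries and -0.18, 0.15 and -0.04 in het libraries, against -0.34, 0.25 and 0.23 and -0.29, 0.20 and -0.06 for those without. The 34 with CCGGAA had a median log2 fold change of 0.11 and the 26 without 0.10.

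Ribosomal proteins outside the name rule and the genes that set ribosome supply gave no call either. Rack1 and Fau of the small subunit had log2 fold changes of 0.10 ± 0.21 and 0.06 ± 0.21 (SE, edgeR), and Rpl36al of the large subunit 0.15 ± 0.21. The 75 mitochondrial ribosomal protein genes, which encode proteins of the separate ribosome of mitochondria, had a median log2 fold change of 0.12. Of the 75, 2 were higher and 0 lower at an unadjusted edgeR p up to 0.05, against 1.38% and 0.771% of all tested genes. These were Mrpl35, at 46.9 ± 8.06 CPM in KO LPMs and 35.1 ± 3.30 CPM in het LPMs, and Mrpl11, at 39.4 ± 2.35 CPM in KO LPMs and 29.7 ± 4.19 CPM in het LPMs (SD, n = 3 each).

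No gene of the lists for elongation, rRNA synthesis, ribosome assembly, translation control or Myc reached that level by edgeR. The median log2 fold change was 0.05 for the 15 elongation and other TOP mRNAs, led by Eef1a1 at 0.22 ± 0.15 (SE), which delivers aminoacyl-tRNA to the ribosome. It was 0.05 for the 16 genes of rRNA synthesis, led by the RNA polymerase I subunit Polr1c at 0.34 ± 0.19, and 0.01 for the 41 ribosome assembly genes, led by Nop14 at -0.27 ± 0.14. It was -0.02 for the 17 genes of eIF4 and mTORC1 control, led by Rptor at -0.19 ± 0.14, and -0.03 for the 9 genes of the Myc family, led by Mycl at 0.55 ± 0.27.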

How the data were processed

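Sorted LPMs of 3 KO and 3 het samples were sequenced on the NextSeq-500 platform, and the authors mapped and counted reads in CLC with its Ensembl annotation. The build is mm9 per the submitters' processing notes and mm10 in the study's methods. The deposited start coordinates plus 1 and the ends match GENCODE M21 (GRCm38) for 73 of the 88 members. The deposited counts per gene are whole numbers and were used for every main test. The authors' deposited RPKM, reads scaled to exon length and mapped reads, were used for levels. The authors' quantile-normalized signal was used for 1 alternative. The deposited read totals per library were used as they stand. The authors' own p-values and fold changes, and their list of genes that passed them, were not used.

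The quasi-likelihood test of edgeR 4.0.16 under R 4.3.3 was run on the counts, with TMM factors of 0.970 to 1.03 and a design of genotype alone. Benjamini-Hochberg adjustment ran over the 10891 genes, and the fit was tested on simulated data. RPKM was converted to fragments as RPKM times exon length times mapped pairs. Start windows came from the RefSeq table, which held 60 of the 80 tested members and none for Rpl30 or Rplp1. Strand was not stated for counting, so overlapping genes cannot be told apart, and 11 members overlap another gene with at least 100 counts in all. Summaries used pandas 2.3.3, numpy 2.4.6 and scipy 1.17.1 under Python 3.11.15.

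The members and lists were chosen with earlier results of these data known. The members given library by library are up to 6 in each direction of smallest edgeR p, the 3 highest and 3 lowest in RPKM, the paralog pairs and those under the count minimum, and up to 3 of smallest p in each other list may be named. Rps27rt, Rps12-ps3 and a few members with a value at an extreme or a shared role were named after their values were seen. Some items are not reported here. Other tests were DESeq2 1.42.0, limma 3.58.1 (voom, plain and with sample weights), limma on RPKM after adding 1 or 0.1, and an equal-variance test on CPM. Other scalings were upper quartile factors, library size alone and TMM without the members. Other count filters, a replicate block and the omission of single libraries were also tried. Quantile-normalized values and recovered fragments were added after seeing the data.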

Additional observations from a re-analysis of the deposited data

How the results depend on the processing

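At a p up to 0.05 before adjustment, 0 members were lower in KO LPMs in every alternative, and Rps27 was higher at that level in all of them, with log2 fold changes of 0.68 to 1.09 and adjusted p-values of 0.0128 to 1.00. Members called at an adjusted p under 0.05 came to 1 without a count filter (Rps27), among 38 genes called, and to 1 in RPKM with a pseudocount of 0.1 (Rps12), among 5. Members higher at an unadjusted p up to 0.05 came to 2 of 80 with limma-voom sample weights, against a background of 2.46% of tested genes. They came to 2 of 83 without a count filter (background 2.06%) and 2 of 80 in RPKM with a pseudocount of 0.1 (background 0.551%). When single libraries were left out they came to between 1 and 19 of 80, with backgrounds of 0.753% to 2.83%. Over the same leave-one-out fits the members' median was -0.02 to 0.27 and the small minus large subunit difference 0.0098 to 0.083. With the replicate block Rpl30 and Rpl38 (0.31 and 0.26) and Rps12 (1.05) passed an unadjusted p of 0.05. In all, 5 members were higher at it, among 250 genes (2.30% of those tested) against 150 without the block. The labels do not say that numbers pair samples. Same-numbered libraries correlated at 0.43, 0.19 and 0.01 in their deviations, and whether they share more than a number was not tested. Of the 6 libraries 4 correlated best with their own number.

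The sign of small differences turned. Rps18 was at 0.0029 and 0.0020 in RPKM with pseudocounts of 1 and 0.1, and Rpl37a was at 0.043 with sample weights and 0.0049 in recovered fragments. Leaving out single libraries gave -0.23 to 0.048 for Rplp2, -0.43 to 0.074 for Rplp1, -0.18 to 0.068 for Rpl7l1, -0.18 to 0.088 for Rps18, -0.21 to 0.19 for Rpl37a, -0.17 to 0.10 for Rpl19 and -0.070 to 0.35 for Rps27l. The cause was not tested. With 3 libraries a genotype and a median SE of 0.19, differences of the size of the members' median are below what single genes can show. The counts hold an uneven part of the reads behind RPKM, which limits levels. The Rps27 difference was smaller when its fragments recovered from RPKM were summed with those of its copy. That sum was not made from the counts, on which the main tests were run. Leaving out single libraries gave 0.21 to 0.51 for Rpl30, 0.12 to 0.47 for Rpl38, 0.14 to 0.38 for Rps21, 0.15 to 0.43 for Rpl10, 0.18 to 0.53 for Rpl22l1 and 0.22 to 1.85 for Rps12.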

Other observations

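The 6 counts of Rps12 (20, 76 and 132 in KO libraries, 0, 40 and 72 in het libraries) were all whole multiples of 4, which held for 3 of the 10891 tested genes and for no other tested member. This was noticed after the values were seen, and its cause was not tested.

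Lars2 held 2.49%, 4.31% and 0.668% of gene counts in KO libraries, against 1.11%, 1.34% and 2.54% in het libraries, a spread that does not follow the order of the ribosomal protein genes.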
